A study of Mus musculus with 24 samples.

Results

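The 10 genes described here belong to the breakdown of the branched-chain amino acids leucine, isoleucine and valine: Bcat2, Bckdha, Bckdhb, Dbt, Bckdk, Ppm1k, Ivd, Mccc1, Mccc2 and Pccb. They were taken by gene symbol from the deposited count table, which had 25229 gene rows. All 10 had a row, and all 10 were among the 13571 genes that passed the low-count filter and were tested. The mice were male C57BL/6 animals, and the poly-A RNA was taken from septum and left ventricle together. They had undergone transverse aortic constriction (TAC), a narrowing of the aorta that raises the pressure load on the left ventricle, or a sham operation. After 1 week of recovery the mice breathed air carrying benzene at 50 ppm or HEPA-filtered air, for 6 hours a day on 5 days a week over 6 weeks. The 24 libraries form 4 groups of 6: TAC then benzene (TAC/Benzene), TAC then filtered air (TAC/Air), sham surgery then benzene (Sham/Benzene) and sham surgery then filtered air (Sham/Air). Age is not given in the labels, and no transgene, allele or drug is named for any group.

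Branched-chain amino acids are broken down inside mitochondria. A transaminase removes the amino group, and the resulting keto acids pass to the branched-chain keto acid dehydrogenase complex, whose step is irreversible and sets the pace of the pathway. A kinase switches that complex off by phosphorylating its E1 alpha subunit, and a phosphatase switches it back on. Beyond the complex the 3 amino acids separate into their own chains of reactions, which end in acetyl-CoA, acetoacetate or, by way of propionyl-CoA, succinyl-CoA. In heart muscle the pathway is known for being expressed at lower levels in failing than in healthy hearts.

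Counts were scaled to CPM, read counts brought to a common library total, with the trimmed mean of M-values (TMM) factors, and a gene was said to rise or fall when edgeR's quasi-likelihood test gave a Benjamini-Hochberg adjusted p under 0.05 over all 13571 genes. Fold changes are given on the log2 scale with a standard error (SE), as TAC minus sham or benzene minus air. Unless benzene is compared with filtered air, a change with benzene or with filtered air is that of TAC against sham under that exposure. Total counts ranged from 10016860 to 13724100 in TAC/Benzene, 10479981 to 13581729 in TAC/Air, 9396445 to 14632231 in Sham/Benzene and 4170660 to 12718494 in Sham/Air. The lowest total belonged to Sham/Air replicate 1, a library that stood apart from the other 23. In it, genes with a high GC content had low counts: the Spearman correlation, across genes, between GC content and its deviation from the average library was -0.77. The other 23 libraries had GC trends too, from -0.55 (TAC/Air replicate 4) to 0.62 (Sham/Benzene replicate 4). In both sham groups replicates 1 to 3 were negative and 4 to 6 positive, and in TAC/Air the signs were reversed. In TAC/Benzene replicates 4 and 6 were negative. Results that rest on Sham/Air replicate 1 are mostly given with all 24 libraries and again without it, as a refit or only as the group mean. The labelled tissue matched its markers: each of 8 cardiomyocyte genes, such as Myh6, Tnnt2 and Myl2, was detected, with summed levels of 47444 CPM or more in every library. The labels do not say which animal each library came from, so p-values measure the spread between these libraries. In bulk tissue, fewer cells of a type and less RNA per cell cannot be told apart.

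Promoter sequences are shown for the 2 genes that act on the same subunit in opposite ways, Ppm1k and Bckdk, whose responses to TAC with benzene lay farthest apart among the 10 genes, and for Bckdhb and Ivd as examples of the catalytic steps. Each window runs from 250 bases before to 50 bases after the annotated start and is written 5′ to 3′ on the gene's strand. The sequences are from the RefSeq promoter table of GRCm38.p6, matched by symbol, and the counts were made on mm9. The table held 11 windows for 9 of the 10 genes, with a pair each for Bcat2 and Bckdhb and none for Dbt. Capitals mark the CCAAT box (CCAAT, or ATTGG on the other strand) and the CACCC box (CACCC, or GGGTG on the other strand), the kind of element that Krüppel-like factors such as Klf15 bind. Ppm1k lies at chr6:57535438-57535737 (minus strand), Bckdk at chr7:127903823-127904122 (plus strand), Bckdhb at chr9:83924887-83925186 (plus strand) and Ivd at chr2:118861744-118862043 (plus strand).
Ppm1k: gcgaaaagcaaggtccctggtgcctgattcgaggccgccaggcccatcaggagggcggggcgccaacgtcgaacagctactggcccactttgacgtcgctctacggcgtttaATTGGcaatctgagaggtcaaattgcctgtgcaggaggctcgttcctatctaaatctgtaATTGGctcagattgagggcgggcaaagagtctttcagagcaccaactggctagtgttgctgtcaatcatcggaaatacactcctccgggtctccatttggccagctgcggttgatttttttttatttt
Bckdk: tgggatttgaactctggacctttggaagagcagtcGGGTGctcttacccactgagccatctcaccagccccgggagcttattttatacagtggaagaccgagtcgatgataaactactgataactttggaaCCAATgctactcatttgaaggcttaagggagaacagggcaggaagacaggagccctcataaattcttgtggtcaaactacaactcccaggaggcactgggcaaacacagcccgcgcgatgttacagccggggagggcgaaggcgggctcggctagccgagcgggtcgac
Bckdhb: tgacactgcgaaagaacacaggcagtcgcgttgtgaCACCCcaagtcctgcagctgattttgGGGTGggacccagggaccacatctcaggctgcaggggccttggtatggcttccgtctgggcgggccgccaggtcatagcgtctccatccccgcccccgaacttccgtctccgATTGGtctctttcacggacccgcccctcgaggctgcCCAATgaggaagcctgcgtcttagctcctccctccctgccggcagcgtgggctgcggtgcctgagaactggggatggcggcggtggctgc
Ivd: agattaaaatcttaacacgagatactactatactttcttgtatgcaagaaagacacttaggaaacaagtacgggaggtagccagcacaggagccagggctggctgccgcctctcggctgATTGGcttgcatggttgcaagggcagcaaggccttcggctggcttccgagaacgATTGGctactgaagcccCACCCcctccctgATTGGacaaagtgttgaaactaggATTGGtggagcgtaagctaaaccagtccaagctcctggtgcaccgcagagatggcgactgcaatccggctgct
The Ivd window held 4 CCAAT boxes and the Ppm1k window 2, while the Bckdk window held 1. A CCAAT box was found in 7 of the 11 windows, against 37.41% of the 32851 windows examined, and a CACCC box in 6 of the 11, against 57.52%. The windows examined were those of 300 bases, with 1 chromosome left out. The 2 motifs share no bases in any of the 11 windows, although in Mccc2 a CCAAT and an ATTGG overlap each other. The letters AAGGTCA, an element that estrogen-related receptors bind, were, on either strand, in none of the 11 windows and in 4.718% of the windows examined. These motifs were chosen after the expression values were known, and a match describes the letters only.

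Expression per transcript length put the dehydrogenase E1 alpha subunit and the leucine enzyme Ivd at the top. Over the 23 libraries other than Sham/Air replicate 1, Bckdha averaged 158 CPM per kilobase (range 104 to 216) and Ivd 128 CPM per kilobase (100.4 to 162). Bcat2, Pccb and Mccc1 followed at 60.3, 56.6 and 52.4 CPM per kilobase, with ranges that overlapped one another. Bckdhb, the E1 beta partner of Bckdha, averaged 42.0 CPM per kilobase, and Mccc2, Dbt and Bckdk lay between 31.0 and 33.8 CPM per kilobase, with overlapping ranges. Ppm1k was the lowest, at 23.4 CPM per kilobase (16.0 to 35.5).

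All 10 genes had a lower mean after TAC than after sham surgery, with benzene and with filtered air. With benzene, 7 of the 10 passed the test as lower (Bckdhb, Dbt, Ppm1k, Ivd, Mccc1, Mccc2 and Pccb), where 7.97% of all tested genes were called lower. With filtered air, 6 of the 10 passed (the same genes without Ivd), where 7.35% of all tested genes were called lower. None of the 10 was called higher, against 8.67% of all genes with benzene and 8.81% with filtered air. The median log2 fold change of the 10 genes was -0.52 with benzene and -0.37 with filtered air, and that of all 13571 genes was -0.0045 and -0.013 in the same comparisons. Leaving out Sham/Air replicate 1, 9 of the 10 genes passed as lower with benzene, where 13.7% of all genes were, and 10 of the 10 with filtered air, where 11.5% of all genes were. The gene that did not pass with benzene was the kinase gene Bckdk. With offsets for GC content and length on all 24 libraries, 8 of the 10 passed as lower with benzene, where 15.0% of all genes were, and 9 of the 10 with filtered air, where 16.2% were.

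**Figure D1:**
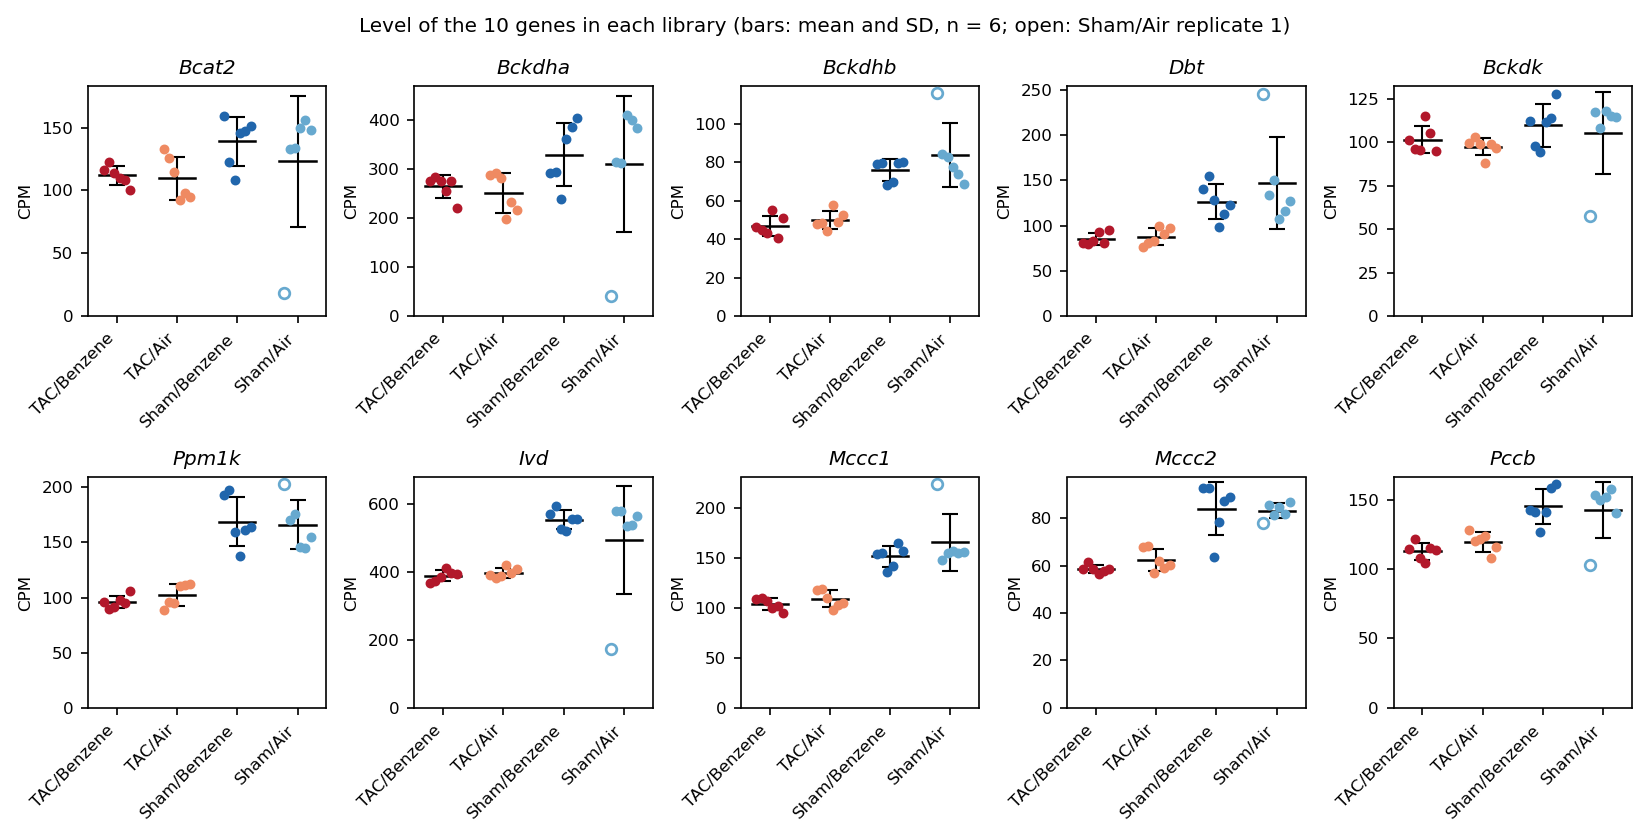
Level of each of the 10 genes in every library, in CPM on an axis from 0, for TAC/Benzene, TAC/Air, Sham/Benzene and Sham/Air; bars give the mean and SD of 6 libraries. The TAC libraries sit below the sham libraries for most genes, and Sham/Air replicate 1 (open circle) lies far from its group for Bcat2 at 18.8 CPM, Bckdha at 40.6 CPM and Ivd at 172 CPM.

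Sham/Air replicate 1 did not lie to one side of its group for the 10 genes, and where it lay went loosely with their GC content. Bckdha, with the highest GC content of the 10 (57.9%), had 40.6 CPM in it and 313 to 411 CPM in the other 5 Sham/Air libraries. Bcat2 (54.3% GC) had 18.8 CPM in it and 133 to 156 CPM in the others. At the other end, Dbt (42.1% GC) had 245 CPM in it and 108 to 150 CPM in the others, and Ppm1k (39.9% GC) had 203 CPM in it and 145 to 176 CPM in the others. Across the 10 genes the Pearson correlation between GC content and the library's log2 deviation was -0.76, and across 10851 genes averaging 50 counts or more it was -0.74; genes of 1 library share its depth and base composition and are not replicates. Genes of like GC content could differ: Ivd (51.1% GC) was at -1.70 log2 units and Mccc2 (51.0% GC) at -0.11. With levels corrected for GC content and length, Bcat2 was still at 5.22 log2 CPM in it, against 7.11 to 7.16 in the others. Ppm1k then lay below its group, at 6.65 against 7.31 to 7.44. In uncorrected CPM the library lies above its group for some of the 10 genes and below it for others, and the Sham/Air mean moves with it in both directions.

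**Figure D2:**
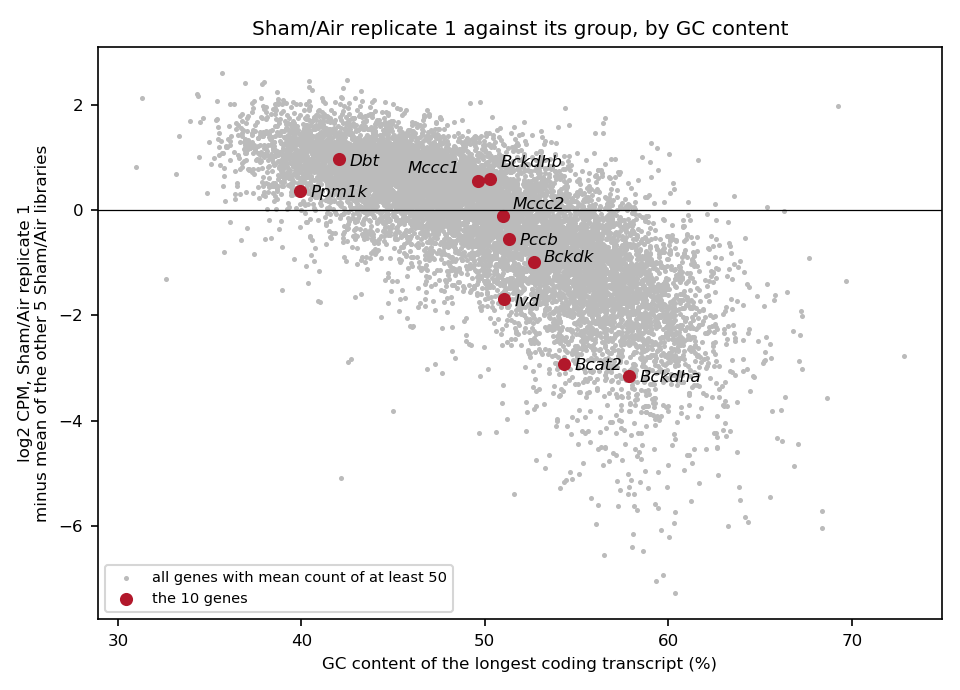
Difference in log2 CPM between Sham/Air replicate 1 and the mean of the other 5 Sham/Air libraries (vertical axis) against the GC content of each gene's longest coding transcript in percent (horizontal axis), for 10851 genes (grey) and the 10 genes (red). Bckdha and Bcat2 lie 3.15 and 2.93 log2 units below the zero line (-3.15 and -2.93), and Dbt lies 0.96 above it.

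Bcat2, the mitochondrial transaminase that starts the pathway, had 100.1 to 122 CPM in TAC/Benzene (median 112) and 108 to 159 CPM in Sham/Benzene (median 147). It had 92.5 to 133 CPM in TAC/Air (median 106) and 18.8 to 156 CPM in Sham/Air (median 141). The groups overlapped in both settings, in filtered air because of the single low library at 18.8 CPM and, without it, because the highest TAC/Air library (132.69) lay just above the lowest Sham/Air library (132.67). With all libraries its log2 fold change was -0.31 ± 0.25 (SE) with benzene (edgeR adjusted p = 0.50) and -0.17 ± 0.25 with filtered air (edgeR adjusted p = 0.71). Without Sham/Air replicate 1 the SE was smaller, and Bcat2 fell by 0.32 ± 0.09 with benzene (edgeR adjusted p = 0.012) and by 0.40 ± 0.10 with filtered air (edgeR adjusted p = 0.0036). An antisense transcript, 0610005C13Rik, overlaps Bcat2; it had at most 13 counts in a library, and without a stated strand setting its reads cannot be told apart from those of Bcat2.

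The dehydrogenase complex is built from Bckdha and Bckdhb, the alpha and beta subunits of its decarboxylase, and Dbt, the transacylase core; Bckdhb and Dbt fell in both settings. Bckdhb had 40.6 to 55.3 CPM in TAC/Benzene (median 45.7) and 68.1 to 80.3 CPM in Sham/Benzene (median 79.3). In filtered air it had 44.3 to 58.1 CPM in TAC/Air (median 48.8) and 68.8 to 116 CPM in Sham/Air (median 80.2). Every TAC library lay below every sham library. The log2 fold change was -0.70 ± 0.11 with benzene (edgeR adjusted p = 2.6e-05) and -0.74 ± 0.11 with filtered air (edgeR adjusted p = 1.5e-05), and -0.63 ± 0.08 with filtered air once Sham/Air replicate 1 was left out.

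Dbt gave 79.8 to 95.2 CPM in TAC/Benzene (median 82.0), against 98.9 to 154 CPM in Sham/Benzene (median 126). It gave 76.2 to 99.7 CPM in TAC/Air (median 87.2), against 108 to 245 CPM in Sham/Air (median 131). No TAC library reached the lowest sham library of its setting. The log2 fold change was -0.56 ± 0.15 with benzene (edgeR adjusted p = 0.0080) and -0.73 ± 0.15 with filtered air (edgeR adjusted p = 0.00090), where it was -0.53 ± 0.10 without Sham/Air replicate 1.

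Bckdha, the subunit that carries the phosphorylation sites, was the most abundant of the 3 per length. It had 221 to 285 CPM in TAC/Benzene (median 276) and 239 to 405 CPM in Sham/Benzene (median 329), so these groups overlapped. In filtered air it had 198 to 292 CPM in TAC/Air (median 257) and 40.6 to 411 CPM in Sham/Air (median 350). The only Sham/Air library within or below the TAC/Air range was replicate 1, since the other 5 had 313 CPM or more. With all libraries the log2 fold changes of -0.32 ± 0.28 with benzene and -0.31 ± 0.28 with filtered air did not pass (edgeR adjusted p = 0.55 and 0.52). Without that library Bckdha fell by 0.32 ± 0.12 with benzene (edgeR adjusted p = 0.043) and by 0.54 ± 0.12 with filtered air (edgeR adjusted p = 0.0015). B3gnt8 overlaps Bckdha on the opposite strand and had at most 104 counts in a library, which cannot be told apart from Bckdha reads for the same reason as above.

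The regulators of the complex differed from each other. Ppm1k encodes the mitochondrial phosphatase that activates the dehydrogenase, and it had 89.9 to 106 CPM in TAC/Benzene (median 95.2) and 138 to 197 CPM in Sham/Benzene (median 163). In filtered air it had 89.0 to 112 CPM in TAC/Air (median 103) and 145 to 203 CPM in Sham/Air (median 162). Every TAC library was well below every sham library. Ppm1k fell by 0.82 ± 0.10 on the log2 scale with benzene (edgeR adjusted p = 5.9e-07) and by 0.69 ± 0.10 with filtered air (edgeR adjusted p = 9.4e-06). Its level thus dropped by 43.3% with benzene, the largest drop among the 10 genes in that comparison, and by 38.1% with filtered air. Ppm1k passed in all 24 fits that each left out 1 library. Its log2 fold change with filtered air lay between -0.73 and -0.63 in those fits.

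Bckdk encodes the kinase that inactivates the dehydrogenase. It had 95.1 to 115 CPM in TAC/Benzene (median 98.7) and 94.6 to 128 CPM in Sham/Benzene (median 112). With filtered air the ranges were 88.0 to 103 CPM in TAC/Air (median 99.1) and 57.7 to 118 CPM in Sham/Air (median 115). The groups overlapped in both settings, although without Sham/Air replicate 1 every TAC/Air library lay below every Sham/Air library, the lowest of which then had 108 CPM. Its log2 fold change was -0.11 ± 0.12 in both settings (edgeR adjusted p = 0.63 with benzene and 0.58 with filtered air), with a 95% interval from -0.35 to 0.12 in each. Leaving out Sham/Air replicate 1, it fell by 0.24 ± 0.07 with filtered air (edgeR adjusted p = 0.014), while the value with benzene was -0.12 ± 0.07 (edgeR adjusted p = 0.21).

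**Figure D3:**
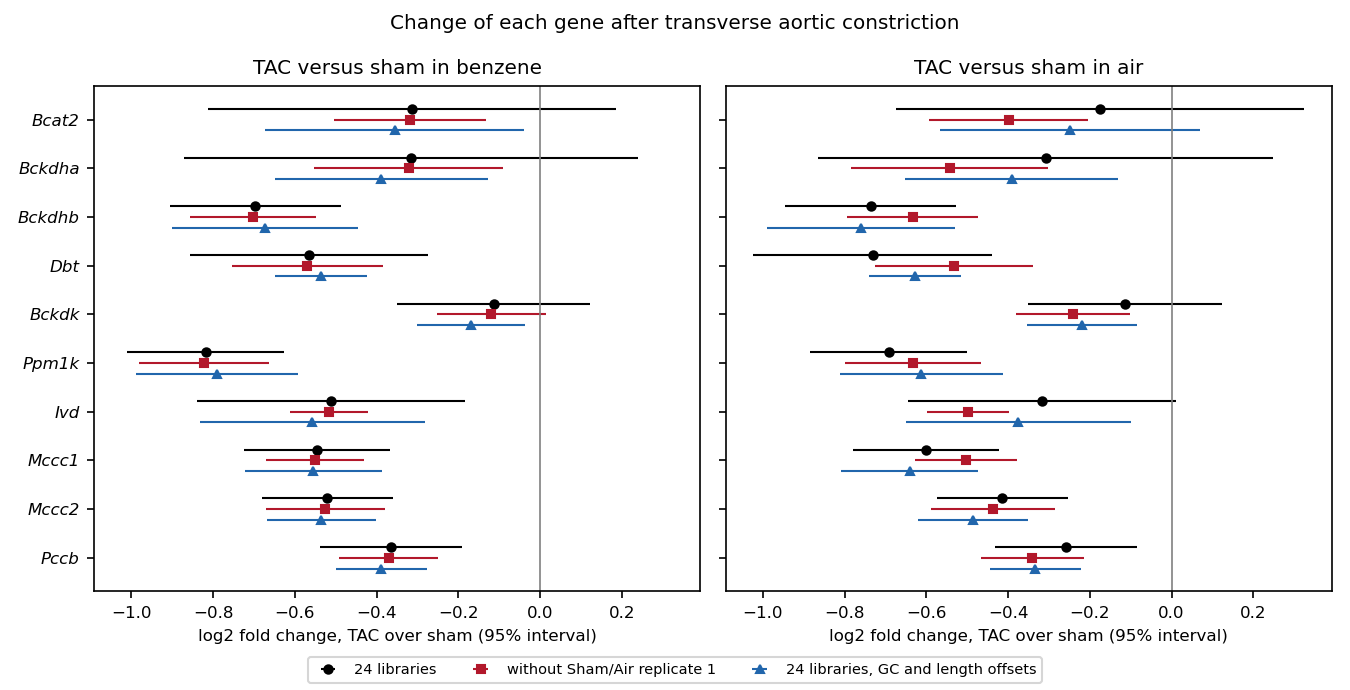
Log2 fold change of each of the 10 genes after TAC with benzene (left) and with filtered air (right), with 95% intervals, from the fit on 24 libraries (black), without Sham/Air replicate 1 (red) and with offsets for GC content and length (blue). Every point lies left of 0, Ppm1k is farthest left with benzene at -0.82, and the intervals of Bcat2, Bckdha and Ivd are narrower without the single library.

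Because kinase and phosphatase act on the same subunit, their transcripts were compared within each library, where the ratio does not depend on library size. The Bckdk to Ppm1k ratio was 1.06, 1.07, 1.05, 1.18, 1.11 and 0.901 in the TAC/Benzene libraries and 0.582, 0.495, 0.594, 0.807, 0.705 and 0.778 in the Sham/Benzene libraries. It was 1.12, 1.07, 1.04, 0.795, 0.887 and 0.864 in the TAC/Air libraries and 0.284, 0.690, 0.614, 0.808, 0.796 and 0.740 in the Sham/Air libraries. All TAC/Benzene ratios were above all Sham/Benzene ratios, while in filtered air the lowest TAC/Air library lay within the sham range. On the log2 scale the mean ratio was 0.70 higher after TAC with benzene (two-sided exact permutation test over all splits, p = 0.0022, the smallest p that 6 against 6 allows, adjusted p = 0.0087 over the 4 comparisons made). With filtered air it was 0.62 higher after TAC (exact p = 0.0065, adjusted p = 0.013), and 0.39 higher when Sham/Air replicate 1 was left out (exact adjusted p = 0.026).

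The ratio did not pass the test between benzene and filtered air. Its geometric mean was 0.651 in Sham/Benzene and 0.621 in Sham/Air, or 0.726 in Sham/Air without replicate 1, and the log2 difference of 0.07 had an exact permutation p of 0.87. After TAC the geometric mean was 1.06 in TAC/Benzene and 0.954 in TAC/Air, a log2 difference of 0.15 (exact permutation p = 0.14, adjusted p = 0.19). The 2 transcripts differ in GC content, 52.7% for Bckdk and 39.9% for Ppm1k, and with levels corrected for GC content and length the TAC difference was 0.61 with benzene and 0.38 with filtered air (exact adjusted p = 0.0087 and 0.013).

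**Figure D4:**
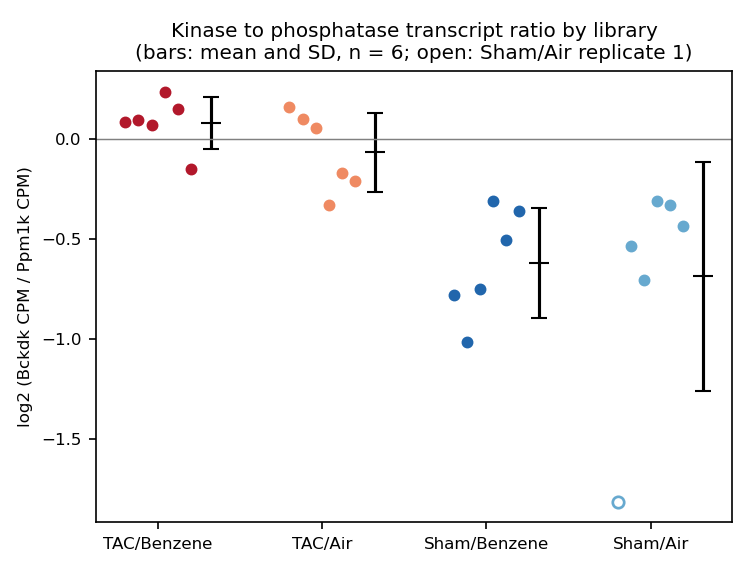
Log2 ratio of Bckdk to Ppm1k CPM in each library of TAC/Benzene, TAC/Air, Sham/Benzene and Sham/Air, with the mean and SD of 6 libraries beside the points. The TAC/Benzene libraries scatter around 0.08 and the Sham/Benzene libraries around -0.62, and Sham/Air replicate 1 (open) is the lowest of all at -1.82.

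The leucine-specific enzymes fell with benzene, and the carboxylase pair fell in both settings. Ivd, isovaleryl-CoA dehydrogenase, had 368 to 411 CPM in TAC/Benzene (median 390) and 520 to 594 CPM in Sham/Benzene (median 555). In filtered air it had 380 to 419 CPM in TAC/Air (median 394) and 172 to 579 CPM in Sham/Air (median 550). The benzene groups did not overlap, and in filtered air the 5 Sham/Air libraries other than replicate 1 had 535 CPM or more, all above the TAC/Air libraries. The log2 fold change was -0.51 ± 0.17 with benzene (edgeR adjusted p = 0.035) and -0.32 ± 0.17 with filtered air (edgeR adjusted p = 0.22). Without Sham/Air replicate 1 Ivd fell by 0.52 ± 0.05 with benzene (edgeR adjusted p = 3.7e-09) and by 0.50 ± 0.05 with filtered air (edgeR adjusted p = 2.1e-08). The call with benzene was a marginal one in the fit on 24 libraries: it held in 15 of the 24 fits that each left out 1 library, with an adjusted p of at most 0.068 in the others.

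Mccc1 and Mccc2 encode the biotin-carrying and the carboxyltransferase subunits of methylcrotonyl-CoA carboxylase, the next step of leucine breakdown. Mccc1 had 94.8 to 110 CPM in TAC/Benzene (median 104) and 136 to 165 CPM in Sham/Benzene (median 155). It had 97.7 to 119 CPM in TAC/Air (median 108) and 148 to 224 CPM in Sham/Air (median 155). No TAC library overlapped the sham libraries of its setting. Mccc1 fell by 0.55 ± 0.09 on the log2 scale with benzene (edgeR adjusted p = 8.1e-05) and by 0.60 ± 0.09 with filtered air (edgeR adjusted p = 2.7e-05). Sham/Air replicate 1 had 224 CPM, and the other Sham/Air libraries had 148 to 157 CPM. Mccc1 passed in all 24 fits that each left out 1 library. Its log2 fold change with filtered air lay between -0.63 and -0.50 in those fits. Mccc1os, an antisense neighbour that overlaps Mccc1, had 10 to 33 counts per library.

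Its partner Mccc2 had 56.4 to 61.5 CPM in TAC/Benzene (median 58.5) and 63.7 to 92.7 CPM in Sham/Benzene (median 88.2). In filtered air Mccc2 had 57.0 to 68.4 CPM in TAC/Air (median 61.1) and 78.1 to 86.9 CPM in Sham/Air (median 83.4). Again the groups did not overlap, and Mccc2 was the gene of the 10 for which Sham/Air replicate 1 lay closest to its group. The log2 fold change was -0.52 ± 0.08 with benzene (edgeR adjusted p = 3.6e-05) and -0.41 ± 0.08 with filtered air (edgeR adjusted p = 0.00069).

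Pccb, the beta subunit of propionyl-CoA carboxylase, takes up the propionyl-CoA left by isoleucine and valine. It had 104 to 121 CPM in TAC/Benzene (median 114) and 127 to 161 CPM in Sham/Benzene (median 142), with no overlap. It had 108 to 128 CPM in TAC/Air (median 121) and 103 to 158 CPM in Sham/Air (median 151), where replicate 1 was the library that overlapped. Pccb fell by 0.37 ± 0.09 on the log2 scale with benzene (edgeR adjusted p = 0.0043). With filtered air it fell by 0.26 ± 0.09 (edgeR adjusted p = 0.047), a call that held in 4 of the 24 fits that each left out 1 library; without Sham/Air replicate 1 the fall was 0.34 ± 0.06 (edgeR adjusted p = 0.00021).

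Counted by overlap alone, every TAC/Benzene library lay below every Sham/Benzene library for 7 of the 10 genes, against 6.31% of all tested genes. Every TAC/Air library lay below every Sham/Air library for 5 of the 10, against 3.71%, and for 9 of the 10 without Sham/Air replicate 1, against 7.09%. The gene that still overlapped was Bcat2.

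Marker levels of the tissue moved with surgery too. The summed CPM of 10 genes of general mitochondrial content, among them Cs, Vdac1 and Hspd1, was 6297 to 6534 in TAC/Benzene and 6933 to 8027 in Sham/Benzene, with 6208 to 6451 in TAC/Air and 5944 to 7947 in Sham/Air (7816 to 7947 without replicate 1). In each TAC comparison 3 of those 10 genes fell and none rose, with a median log2 fold change of -0.21 in each. These counts are from the fit on 24 libraries and do not compare with counts made without Sham/Air replicate 1. That library widened the spread of some markers. Cs averaged 1511 CPM (SD 442) in Sham/Air, or 1691 CPM (SD 46.5) without it, against 1274 CPM in TAC/Air. Vdac1 hardly moved, at 1170 CPM with it and 1182 CPM without it, against 991 CPM in TAC/Air. Without that library Hspd1 averaged 592 CPM in Sham/Air against 459 CPM in TAC/Air, and Timm44 124 CPM against 98.0 CPM. Tomm20 and Tfam differed less, at 133 against 131 CPM and 63.5 against 61.2 CPM. Whether the 10 genes fell further than the mitochondrial markers was not tested. Summed levels of 8 cardiomyocyte markers were 49949 to 55855 CPM in TAC/Benzene, 47444 to 57103 CPM in TAC/Air, 64178 to 77228 CPM in Sham/Benzene and 70017 to 102808 CPM in Sham/Air (at most 75954 CPM without replicate 1). Those of 8 fibroblast markers were 3796 to 4378 CPM in TAC/Benzene, 3988 to 4658 CPM in TAC/Air, 1563 to 2024 CPM in Sham/Benzene and 1541 to 3413 CPM in Sham/Air (at most 1909 CPM without replicate 1). The fibroblast markers thus lay higher and the cardiomyocyte and, apart from Sham/Air replicate 1, the mitochondrial markers lower in every TAC library than in the sham libraries of the same setting. By single genes in the fit on 24 libraries, 5 of the 8 cardiomyocyte markers fell with benzene and 6 with filtered air. In that fit 7.97% of all genes fell and 8.67% rose with benzene, and 7.35% fell and 8.81% rose with filtered air. The marker counts that follow are from the same fit and are not given without Sham/Air replicate 1. Of the 8 fibroblast markers 5 rose in each setting. The 5 neutrophil markers summed to 42.2 to 51.9 CPM in TAC/Benzene, 9.77 to 14.7 CPM in TAC/Air, 6.94 to 21.6 CPM in Sham/Benzene and 10.2 to 14.6 CPM in Sham/Air, and all 5 rose after TAC with benzene. The 7 macrophage markers summed to 253 to 289 CPM in TAC/Benzene, 320 to 381 CPM in TAC/Air, 277 to 309 CPM in Sham/Benzene and 285 to 321 CPM in Sham/Air. Of these 7, 1 rose and 1 fell after TAC with benzene, and 2 rose after TAC with filtered air. In TAC hearts 2 of them fell with benzene against filtered air, where 0.582% of all genes were called in either direction. Of 6 endothelial markers 1 rose with benzene and none changed with filtered air after TAC, and of 4 smooth muscle markers 1 fell with benzene, while 1 rose and 1 fell with filtered air. The part of these marker changes in the falls of the 10 genes was not tested. Adipocytes also break down branched-chain amino acids, and of 6 adipocyte markers 2 passed the count filter. The summed level of those 2 was at most 7.71 CPM in any library. The sum leaves out Plin1, Lep, Cidec and Ucp1, which did not pass the filter, and Lep and Ucp1 were at 0 in all TAC/Air libraries.

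Benzene did not change any of the 10 genes past the test in sham-operated or TAC hearts. In sham-operated hearts 0 of 10 passed with edgeR, where 0.0221% of all genes were called. None of the 10 passed with DESeq2 either, which called 28 of all 13571 genes, or had an unadjusted edgeR p under 0.05, as 777 of all genes did. The log2 fold changes of benzene over filtered air lay between -0.21 (Dbt) and 0.17 (Bcat2), and without Sham/Air replicate 1 between -0.14 (Bckdha) and 0.09 (Ppm1k). The 95% intervals of all 10 genes fell between -0.50 and 0.67 with all libraries and between -0.38 and 0.26 without that one. In TAC hearts 0 of 10 passed with edgeR, where 0.582% of all genes were called, 0 with DESeq2, which called 171 genes, and 0 at an unadjusted edgeR p under 0.05, which 837 genes had. The fold changes lay between -0.10 (Ppm1k and Bckdhb) and 0.08 (Bckdha), and the 95% intervals between -0.48 and 0.63, or between -0.26 and 0.31 in the fit without Sham/Air replicate 1. Every benzene group overlapped its filtered-air group for all 10 genes; over all tested genes, 1.21% lay wholly below and 1.5% wholly above in TAC hearts, and 0.118% and 0.162% in sham-operated hearts. For Ppm1k the ranges were 89.9 to 106 CPM in TAC/Benzene and 89.0 to 112 CPM in TAC/Air, and for Ivd they were 368 to 411 CPM in TAC/Benzene and 380 to 419 CPM in TAC/Air.

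The interaction term asked whether the response to TAC differed between benzene and filtered air. It passed for 0 of the 10 genes with edgeR, where 0.169% of all genes were called. It also passed for 0 with DESeq2, which called 57 genes, and for 0 at an unadjusted edgeR p under 0.05, which 637 genes had. The interaction estimates, the log2 fold change with benzene minus that with filtered air, ranged from -0.19 (Ivd) to 0.17 (Dbt), with 95% intervals that reached from -0.84 to 0.78. Without Sham/Air replicate 1 they ranged from -0.19 (Ppm1k) to 0.22 (Bckdha), with 95% intervals that reached from -0.42 to 0.55. Differences within these intervals were not detectable with these libraries.

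Beyond the 10 genes, 40 other genes of the pathway were examined from a list of enzymes, carriers, cofactor genes, related dehydrogenases and transcription regulators, and all 40 were tested. After TAC with benzene 18 fell and 2 rose, where 7.97% of all genes fell and 8.67% rose. After TAC with filtered air 17 fell and 2 rose, where 7.35% of all genes fell and 8.81% rose. Among them were 17 further genes of the breakdown steps, counting the carrier Slc25a44 and the cobalamin chaperone Mmaa. Of these 17, 10 fell and 1 rose with benzene and 10 fell and none rose with filtered air. Median log2 fold changes of those 17 genes were -0.34 with benzene and -0.34 with filtered air. Without Sham/Air replicate 1, 14 of the 17 fell with benzene and 13 with filtered air, where 13.7% and 11.5% of all genes fell.

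The propionate arm, which carries the product of Pccb onward to succinyl-CoA, fell at 4 of 5 genes in both settings. Pcca, the biotin-carrying partner of Pccb, had 88.4 to 99.4 CPM in TAC/Benzene and 117 to 139 CPM in Sham/Benzene, and it fell by 0.49 ± 0.11 on the log2 scale with benzene and by 0.40 ± 0.11 with filtered air (edgeR adjusted p = 0.0014 and 0.0087). Mmut, methylmalonyl-CoA mutase, had 132 to 141 CPM in TAC/Benzene and 166 to 202 CPM in Sham/Benzene, and it fell by 0.46 ± 0.09 with benzene and by 0.53 ± 0.09 with filtered air (edgeR adjusted p = 0.00041 and 9.6e-05). The filtered-air value leans on Sham/Air replicate 1: Mmut averaged 202 CPM in Sham/Air, or 188 CPM without that library, against 140 CPM in TAC/Air. The others that fell were Mcee, methylmalonyl-CoA epimerase, at -0.46 and -0.53, and Mmaa, a cobalamin chaperone of the mutase, at -0.27 and -0.35. Mcee averaged 76.1 CPM in Sham/Air, or 70.4 CPM without Sham/Air replicate 1, against 52.4 CPM in TAC/Air.

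In the isoleucine chain 3 of 4 genes fell in each setting. Acat1, the thiolase that ends it, and Hsd17b10, the dehydrogenase before it, fell with benzene by 0.33 and 0.36 and with filtered air by 0.30 and 0.34. Echs1, the enoyl-CoA hydratase, fell with benzene by 0.34 ± 0.10 (edgeR adjusted p = 0.019), and Acadsb, the acyl-CoA dehydrogenase, fell with filtered air by 0.50 ± 0.15 (edgeR adjusted p = 0.022). Leaving out Sham/Air replicate 1, the fall of Acadsb with filtered air was 0.26 ± 0.08 (edgeR adjusted p = 0.015), and both genes fell in both settings. In the valine chain Aldh6a1, methylmalonate semialdehyde dehydrogenase, fell by 0.55 ± 0.11 with benzene and by 0.66 ± 0.11 with filtered air (edgeR adjusted p = 0.00056 and 8.5e-05), and Hibadh fell with benzene by 0.31 ± 0.10 (edgeR adjusted p = 0.029). Aldh6a1 averaged 422 CPM in Sham/Air, or 393 CPM without Sham/Air replicate 1, against 267 CPM in TAC/Air. Hibch, at -0.15 with benzene and -0.30 with filtered air, and Acad8, at -0.31 and -0.04, did not pass. In the fit that left out Sham/Air replicate 1, the filtered-air values were -0.12 for Hibch and -0.20 for Acad8, still not passing, and Acad8 fell by 0.32 ± 0.08 with benzene (edgeR adjusted p = 0.0032). In the leucine chain Auh, methylglutaconyl-CoA hydratase, fell by 0.40 and 0.37 with benzene and with filtered air.

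Genes at the entrance of the pathway moved in different directions. Bcat1, the cytosolic transaminase, had 1.40 to 2.18 CPM in TAC/Benzene and 0.476 to 1.91 CPM in Sham/Benzene. After TAC with benzene it rose by 0.78 ± 0.26 on the log2 scale (edgeR adjusted p = 0.038). It averaged 1.87 CPM in TAC/Benzene, 1.09 CPM in Sham/Benzene, 2.39 CPM in TAC/Air and 1.78 CPM in Sham/Air. As benzene minus air it was at -0.67 in sham-operated and -0.35 in TAC hearts, and neither passed. Bcat1 is a low-count gene whose groups overlapped and whose call was lost in several of the alternative fits. Dld, the E3 subunit that the complex shares with other dehydrogenases, fell with filtered air by 0.54 ± 0.15 (edgeR adjusted p = 0.015) and was at -0.43 ± 0.15 with benzene (edgeR adjusted p = 0.057). Without Sham/Air replicate 1 Dld fell by 0.31 ± 0.09 with filtered air (edgeR adjusted p = 0.013) and by 0.43 ± 0.09 with benzene (edgeR adjusted p = 0.00047). Slc25a44, the mitochondrial carrier of branched-chain amino acids, was at 0.07 and 0.10 with benzene and with filtered air and did not pass; without Sham/Air replicate 1 the filtered-air value was -0.05. Of 5 plasma membrane carriers of large neutral amino acids 1 rose, Slc7a5, with 9.67 to 12.8 CPM in TAC/Benzene and 4.43 to 7.19 CPM in Sham/Benzene. Slc7a5 rose by 0.98 ± 0.16 with benzene (edgeR adjusted p = 5.9e-05) and by 0.58 ± 0.16 with filtered air (edgeR adjusted p = 0.015). The filtered-air value leans on Sham/Air replicate 1, the lowest of its group at 2.56 CPM. Slc7a5 averaged 6.28 CPM in Sham/Air, or 7.02 CPM without that library, against 9.76 CPM in TAC/Air.

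Of 8 genes for biotin, thiamine and lipoate, the cofactors of these enzymes, 3 fell with benzene: Hlcs, which attaches biotin to carboxylases (-0.37 ± 0.12), Slc5a6, which carries biotin (-0.45 ± 0.15), and Lias, lipoate synthase (-0.27 ± 0.08). With filtered air 1 of the 8 changed, where 7.35% of all genes fell and 8.81% rose. It was Btd, the enzyme that recycles biotin, which rose by 0.51 ± 0.14 (edgeR adjusted p = 0.012). Btd averaged 10.6 CPM in Sham/Air, or 11.7 CPM without Sham/Air replicate 1, against 15.6 CPM in TAC/Air. Of 6 subunits of the related pyruvate and oxoglutarate dehydrogenases, 2 fell with benzene and 4 with filtered air. Pdha1 fell by 0.30 and 0.32 and Dlst by 0.24 and 0.35 with benzene and with filtered air, and Ogdh and Dlat fell with filtered air by 0.28 and 0.42. The fall of Dlat with filtered air was 0.27 ± 0.04 when Sham/Air replicate 1 was left out (edgeR adjusted p = 2.7e-05). In the fit on 24 libraries the falls of Pdha1, Dlst, Ogdh and Dlat were smaller in size than those of Bckdhb, Dbt and Ppm1k. With filtered air they were larger than those of Bcat2, Bckdk and Pccb. These differences were not tested.

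Transcription regulators known to act on this pathway or on mitochondrial genes fell at 3 of 4 genes in each setting. Klf15, which drives branched-chain amino acid breakdown genes in the heart, had 47.7 to 52.5 CPM in TAC/Benzene and 53.8 to 82.9 CPM in Sham/Benzene, with 38.3 to 48.3 CPM in TAC/Air and 54.8 to 74.1 CPM in Sham/Air. Its groups did not overlap, and it fell by 0.50 ± 0.10 with benzene and by 0.60 ± 0.10 with filtered air (edgeR adjusted p = 0.00052 and 8.7e-05). Ppargc1a, a coactivator of mitochondrial genes, fell by 0.86 ± 0.19 and 0.71 ± 0.19, and Ppara, a nuclear receptor of fatty acid oxidation, by 0.43 ± 0.10 and 0.42 ± 0.10, with benzene and with filtered air. The fall of Ppargc1a with filtered air was 0.45 ± 0.13 when Sham/Air replicate 1 was left out (edgeR adjusted p = 0.011). Esrra was at -0.11 with benzene and -0.25 with filtered air, or -0.49 with filtered air without that library, and did not pass.

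**Figure D5:**
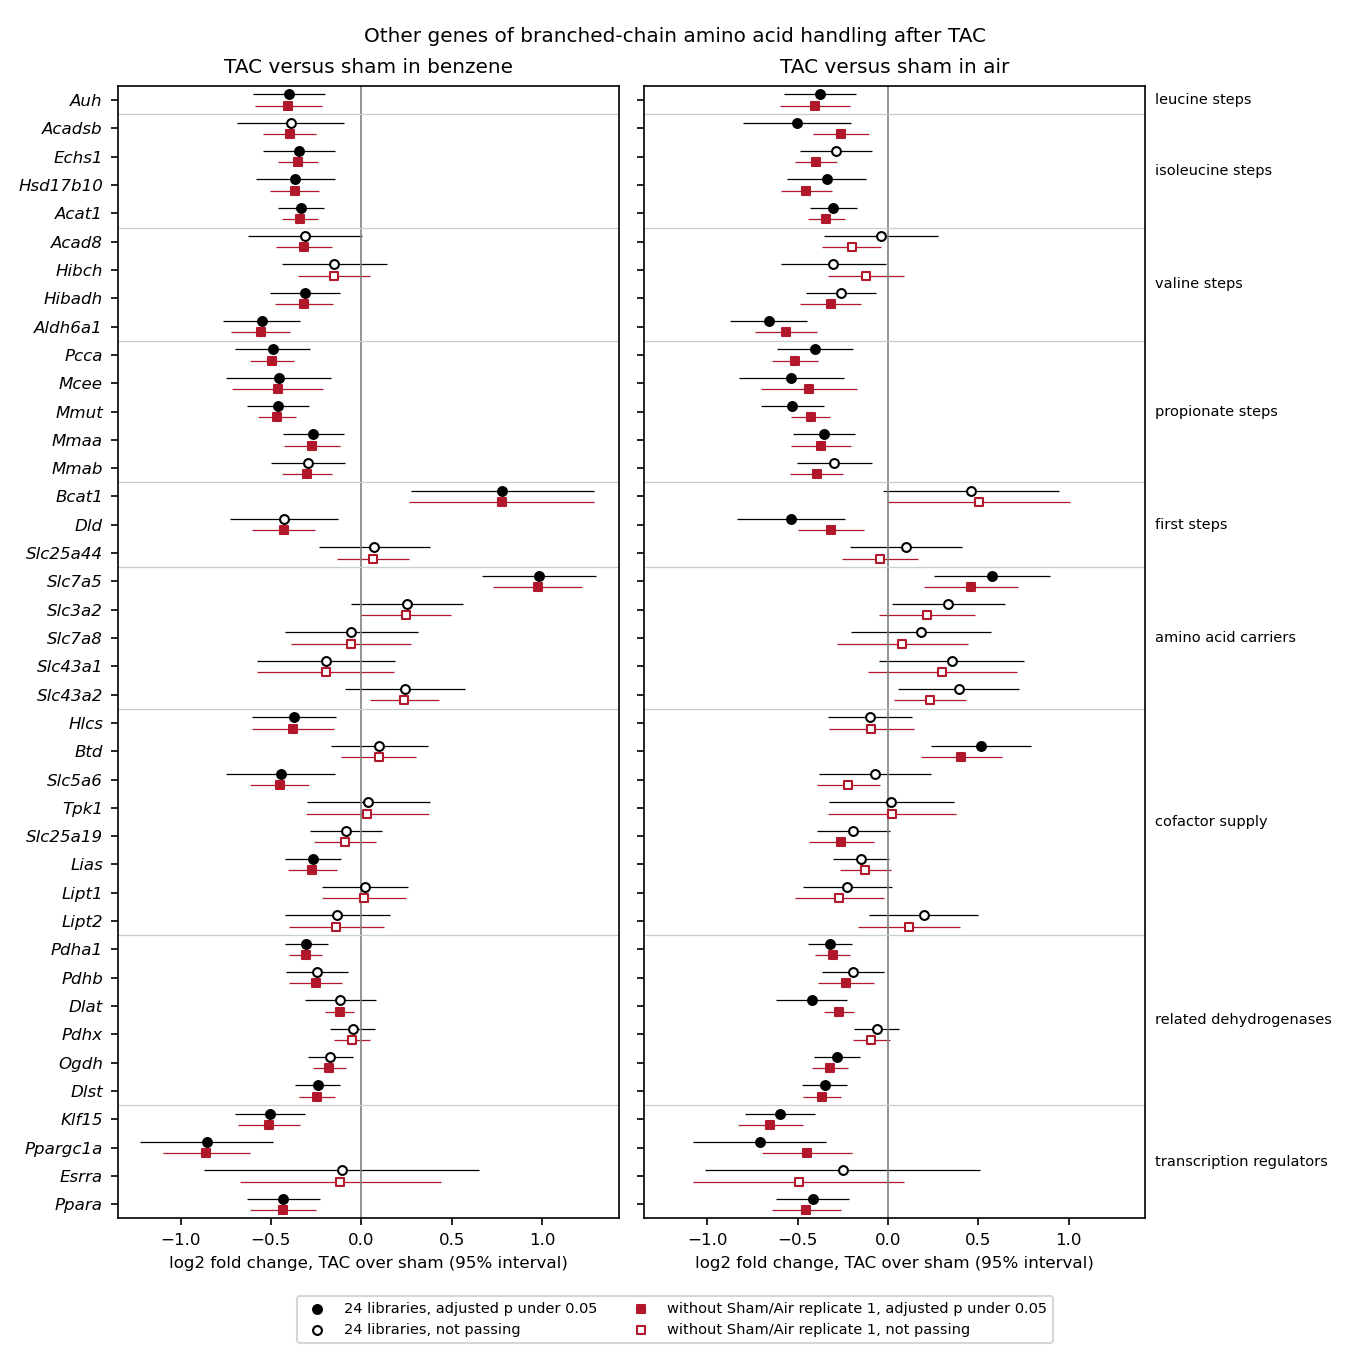
Log2 fold change, with 95% interval, of 40 other genes of branched-chain amino acid handling after TAC with benzene (left) and with filtered air (right), grouped by role; filled points passed the test, black with 24 libraries and red without Sham/Air replicate 1. Most breakdown steps lie left of 0, whereas Slc7a5 lies right of it at 0.98 with benzene and 0.58 with filtered air in the fit on 24 libraries.

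Between benzene and filtered air none of the 40 genes passed with edgeR on 24 libraries, in sham-operated hearts, in TAC hearts or for the interaction, although 3, 2 and 2 of them had an unadjusted p under 0.05, as 777, 837 and 637 of all 13571 genes did. The gene of each list with the smallest p in sham-operated hearts was Auh, Acadsb, Hibch, Mmaa, Bcat1, Slc43a1, Slc5a6, Dlat or Klf15, with fold changes from -0.67 (Bcat1) to 0.37 (Slc5a6). In TAC hearts those genes were Auh, Acat1, Acad8, Mmaa, Bcat1, Slc7a5, Hlcs, Dlst and Klf15, and Hlcs was at -0.41 ± 0.12 (edgeR adjusted p = 0.17). For the interaction they were Auh, Acadsb, Acad8, Mmaa, Bcat1, Slc43a1, Btd, Dlat and Klf15, from -0.55 (Slc43a1) to 0.32 (Bcat1). Hlcs in TAC hearts passed with GC and length offsets (edgeR adjusted p = 0.046) and with limma-voom (adjusted p = 0.032).

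Within groups the 10 genes did not vary as a single block. After the group means were removed, the Pearson correlation between 2 of the 10 genes over the 23 libraries had a median of 0.28 across the 45 pairs and ranged from -0.76 (Bckdha with Dbt) to 0.93 (Dbt with Ppm1k), with 18 pairs below 0. With levels corrected for GC content and length the median was 0.28 and the range -0.50 to 0.76, with 8 pairs below 0. These values describe libraries that share depth and base composition. Among 8990 genes with at least 10 CPM, those whose levels ran most like the mean of the 10 genes over the 24 libraries, by Pearson's r and with group differences included, were Atp5b (0.98), Suclg1, Atp5a1, Dhrs7c and Ech1. Those that ran most opposite were Enah (-0.97), Rtn4, P3h2, Xirp2 and Sh3d19. Over the 23 libraries the most alike were Ech1 (0.99), Atp5b, Acaa2, Suclg1 and Gstk1, and the most opposite were Fbn1, Loxl2, Col3a1, Col5a2 and Rflnb.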

How the data were processed

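Libraries from the left ventricle and septum were grouped by surgery and exposure from the sample titles. The authors deposited raw read counts per gene, named by symbol; per the submitters' processing notes FastQC 0.11.9, STAR, DESeq2 and mm9 were used, while counting tool, annotation and strandedness are stated in no source used here. Counts were tested with edgeR 4.0.16 (R 4.3.3): genes were kept with filterByExpr (minimum count 10, total 15), scaled by TMM, and fitted by robust quasi-likelihood with a coefficient for each of the 4 groups over the 24 libraries; 5 contrasts were taken, and p-values were adjusted by the Benjamini-Hochberg method over 13571 genes. Genes left out held 0.0747% of the counts. The SE is the fold change divided by the square root of F, and 95% intervals are 1.96 SE wide on each side. CPM values were computed here from the deposited counts. The Bckdk to Ppm1k ratio was tested by exact permutation over libraries.

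The longest coding transcript of each gene in GENCODE vM21 gave its GC content and length (97.86% of symbols matched) and entered 1 alternative as offsets. Other alternatives were DESeq2 1.42.0, limma-voom 3.58.1 with quality weights, RLE size factors, no filter or a mean of at least 1 CPM, fits on only the groups compared, a replicate block, and leaving out each library; 3 more, which leave out Sham/Air replicate 1 with GC offsets or split the libraries by the sign of their GC trend, were added after the data were seen. Whether replicate numbers pair libraries was checked from deviations of same-numbered libraries: between TAC and sham groups none of the 6 correlations exceeded 0.1, while 5 of 6 did between TAC/Benzene and TAC/Air (-0.02 to 0.34) and 4 of 6 between Sham/Benzene and Sham/Air (-0.03 to 0.47); since no comparison had every pair over 0.1, the numbers were not taken as pairs. The 10 genes, the other lists and the tests were chosen with earlier results of these data known. Named among the other lists were up to 4 genes per list that passed, smallest p first, or the gene with the smallest p where none passed; Hibch, Acad8, Slc25a44, Esrra and the benzene-side values of Dld were named after their values were seen. A further listed gene is not reported here. The edgeR step was tested on simulated data.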

Additional observations from a re-analysis of the deposited data

Results flagged for a closer look

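In 44 groups of 6 libraries, covering each of the 10 genes and the Bckdk to Ppm1k ratio in the 4 groups, the gap between the highest or lowest library and its nearest neighbour was compared with the range of the group at Dixon's 95% critical value of 0.625. Chance marks about 1 in 20 such groups. Of these 44, 9 were marked, and all 9 were Sham/Air replicate 1. It was the lowest of its group for Bcat2 at 18.8 CPM, Bckdha at 40.6 CPM, Bckdk at 57.7 CPM, Pccb at 103 CPM, Ivd at 172 CPM and the Bckdk to Ppm1k ratio at 0.284. It was the highest of its group for Bckdhb at 116 CPM, Mccc1 at 224 CPM and Dbt at 245 CPM. The same library had the lowest total count, 4170660, and the GC trend given above; the part of depth, GC content or any other property of the library in these values was not tested.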

How the results depend on the processing

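The count of the 10 genes that fell after TAC with filtered air was 6 with 24 libraries. It was 10 with limma-voom, without Sham/Air replicate 1, with GC and length offsets on 23 libraries, and in the 13 libraries with a positive GC trend. In those fits 1808, 1558, 2487 and 1849 of all 13571 genes fell, against 998 in the fit on 24 libraries. Under the other alternatives the count of the 10 genes was 5 to 9, and leaving out 1 library at a time gave 5 to 10. After TAC with benzene the count of the 10 genes was 7, 6 to 10 under the alternatives and 6 to 9 when 1 library was left out. Of all genes 1081 fell after TAC with benzene in the fit on 24 libraries, and 913 to 2739 under the alternatives. The 3 benzene and interaction counts were 0 throughout (leave-one-out range 0 to 0). Bckdhb, Dbt, Ppm1k, Mccc1 and Mccc2 passed in all 35 alternative fits of both TAC comparisons, and none of the 10 genes changed sign in them except Bckdk with benzene in the 10 libraries with a negative GC trend (0.05). Bckdk with filtered air passed in 5 of the 35 and with benzene in 3. With a replicate block Pccb with filtered air and Ivd with benzene no longer passed (adjusted p = 0.095 and 0.052), leaving 5 and 6 genes; the block changed no other call among the 10 genes. The ratio differences after TAC stayed at 0.70 with benzene and 0.62 with filtered air under the block, where the exact p was 0.031 with benzene, the smallest that 6 pairs allow, and 0.0625 with filtered air, each 0.125 after adjustment. Leaving out 1 library, the ratio differences ranged over 0.622 to 0.763 and 0.394 to 0.696 (TAC, benzene and filtered air), -0.158 to 0.147 (benzene, sham) and 0.0952 to 0.194 (benzene, TAC). Within the libraries of positive and of negative GC trend the TAC ratio differences were 0.49 and 0.89 with benzene and 0.46 and 0.38 with filtered air; exact permutation p-values were 0.057 and 0.2 with benzene and 0.1 and 0.2 with filtered air, the smallest that 4 against 3, 3 against 3 or 3 against 2 libraries allow, so no call could be made. Over all genes the calls for TAC with benzene and with filtered air, benzene in TAC, benzene in sham and the interaction were 2257, 2193, 79, 3 and 23, against 2693, 2694, 171, 28 and 57 with DESeq2, 4497, 3739, 556, 6 and 93 with limma-voom, 3791, 3864, 258, 13 and 70 with GC and length offsets, 3685, 3171, 231, 3 and 49 without Sham/Air replicate 1, and 1951, 1867, 46, 2 and 14 with the block. They were 4989, 4460, 632, 24 and 209 with offsets on 23 libraries, 4679, 3796, 832, 10 and 252 in the 13 libraries with a positive and 2156, 1843, 27, 1 and 8 in the 10 with a negative GC trend, and 2125, 2018, 63, 1 and 19 with no filter. On only the groups compared they were 3415, 1300, 274 and 1, with no interaction. The cause of these differences was not tested. Depth limits Bcat1, at 0.476 to 3.43 CPM, more than any of the 10 genes.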
